A study of Mus musculus with 19 samples.

Results

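The genes of the mitochondrial respiratory chain were followed through cerebral cortex RNA from male P301S/E4 mice, with lemborexant and vehicle libraries compared for each complex and for each genome. Members were the protein-coding genes whose mouse symbols start with Ndufa, Ndufb, Ndufc, Ndufs, Ndufv, Uqcr, Atp5 or Cox4 to Cox8, together with Sdha to Sdhd, Cyc1, Cycs and the mitochondrial protein-coding genes. Of 55487 gene identifiers in the tables, 109 met this rule, 96 of them nuclear and 13 mitochondrial. By symbol, 36 nuclear members were placed in complex I, 4 in complex II and 9, with Cyc1, in complex III. Complex IV took 20 and complex V 18, among them a second Atp5o identifier. Placement followed the symbol and does not make each of these genes a subunit of its complex. The remaining nuclear members were Cycs and 8 assembly factors, Ndufaf1 to Ndufaf8, which share the Ndufa prefix. The mitochondrial members were 7 subunits of complex I, 1 of complex III, 3 of complex IV and 2 of complex V. Ndufa4 and Ndufa4l2 were placed in complex IV, where Ndufa4 protein is now assigned. A further 13 symbols with these prefixes are annotated as pseudogenes or noncoding genes and were left out.

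P301S/E4 mice model tauopathy: the name joins a tau mutation known from frontotemporal dementia with the E4 form of apolipoprotein E. The sources used here do not give the promoter of the tau transgene or the origin of the E4 allele. All mice carried this genotype and were recorded as 41 weeks old. The 10 lemborexant libraries came from mice gavaged each day at zeitgeber time 13 with 30 mg/kg of this dual orexin receptor antagonist, from 7.5 to 9.5 months of age. The 9 vehicle libraries came from mice given 0.5% methylcellulose on the same schedule. The labels do not tie libraries to separate animals, and the p-values therefore cover the spread between libraries, which may in part be technical.

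The respiratory chain passes electrons from NADH (complex I) and succinate (complex II) through ubiquinone, complex III, the soluble carrier cytochrome c and complex IV to oxygen. Complexes I, III and IV pump protons across the inner mitochondrial membrane, and complex V, the ATP synthase, uses that gradient to make ATP. Complex II is encoded wholly in the nucleus, and the other 4 complexes are mosaics of nuclear and mitochondrial subunits. In the cortex, neurons depend on this pathway for most of the ATP that restores ion gradients after synaptic activity.

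Estimated reads on genes numbered 20185043 to 31795566 per library. The series has 3 features that bear on every result below. In the first, lemborexant replicates 1 and 10, 3 and 8, and 4 and 9 were nearly alike (chi-square divided by its degrees of freedom, 3.08 to 3.66, while the remaining 168 pairs had 12.2 to 274), so the counts and medians over members and complexes, and the calls of single genes, are also given with the counts of these pairs summed (7 lemborexant units and 9 vehicle libraries), while library levels and single log2 differences are over all 19 libraries. In the second, reads on nuclear ribosomal RNA genes took over 3% of lemborexant replicate 6 and of vehicle replicates 3, 4 and 5. The share was 1.88 ± 0.547% in lemborexant libraries (SD, n = 10) and 2.54 ± 0.900% in vehicle libraries (SD, n = 9), with a two-sided exact permutation p of 0.0681, and of 0.205 after averaging the pairs. In the last, lemborexant replicates 1 and 10 and vehicle replicates 1 and 4 had at most 0.253 CPM of Cst7, a microglial gene of tauopathy cortex, while the other 15 libraries had 16.3 to 144 CPM. Whether any of these features accounts for the differences below was not tested.

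Many nuclear members share short elements in their promoters that are known as binding motifs of nuclear respiratory factor 1, of ETS-family factors such as GABP, of YY1 and of the estrogen-related receptors. RefSeq's GRCm38.p6 promoter table (250 bases before to 50 after each gene's start) matched 77 of 95 nuclear symbols, in 82 windows. The NRF1 motif, whose letters the capitals in Ndufs5 and Cox6a1 below show, was searched with any base at the position where those copies differ and, like the others, on both strands. It was in 24.4% of the member windows against 4.603% of all 32851 windows. The ETS motif CCGGAAG was in 21.95% against 8.86%, the YY1 motif AANATGGCG in 13.4% against 2.38%, and the estrogen-related receptor motif TCAAGGTCA in 2.44% against 0.423%. The last letters of the ETS motif can be the first of the YY1 motif, so a stretch can hold both. A match is a run of letters and not a measured binding site, and promoters of neighbouring genes that face each other share windows. The 4 stretches below show what these elements look like in a gene of complexes I, III, IV and V. Each is printed 5′ to 3′ on the strand of its gene as far as it holds no annotated exon, with the motif in capitals (the Uqcrh and Atp5g3 motifs are on the opposite strand, so their reverse complement is read).
Ndufs5 (GRCm38.p6, chr4:123718203-123718436, minus strand, NRF1 motif): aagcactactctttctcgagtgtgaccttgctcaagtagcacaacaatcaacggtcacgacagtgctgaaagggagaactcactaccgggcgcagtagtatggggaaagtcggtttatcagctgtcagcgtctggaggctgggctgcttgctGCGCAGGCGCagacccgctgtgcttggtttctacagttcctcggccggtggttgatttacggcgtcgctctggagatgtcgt
Uqcrh (GRCm38.p6, chr4:116075072-116075268, minus strand, ETS motif): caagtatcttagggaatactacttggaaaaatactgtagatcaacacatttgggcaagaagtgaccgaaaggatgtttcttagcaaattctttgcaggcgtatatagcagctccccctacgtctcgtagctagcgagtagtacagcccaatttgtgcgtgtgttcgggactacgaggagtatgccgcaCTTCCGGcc
Cox6a1 (GRCm38.p6, chr5:115348982-115349129, minus strand, 2 NRF1 motifs): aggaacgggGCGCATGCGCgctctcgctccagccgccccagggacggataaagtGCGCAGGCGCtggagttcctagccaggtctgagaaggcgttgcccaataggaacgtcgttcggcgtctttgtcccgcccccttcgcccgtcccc
Atp5g3 (GRCm38.p6, chr2:73911327-73911576, minus strand, estrogen-related receptor motif): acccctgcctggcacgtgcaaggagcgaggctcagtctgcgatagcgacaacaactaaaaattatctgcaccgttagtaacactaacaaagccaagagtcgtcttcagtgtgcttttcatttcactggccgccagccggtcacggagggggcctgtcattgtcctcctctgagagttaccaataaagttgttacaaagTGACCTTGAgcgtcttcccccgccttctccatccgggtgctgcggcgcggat
The first base of the Cox6a1 motifs lies 162 and 117 bases before the RefSeq start. The Ndufs5 motif begins 98 bases before it, the Uqcrh motif 10 and the Atp5g3 motif 52.

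Most respiratory chain transcripts of both genomes had lower fitted levels after lemborexant than after vehicle, and 1 of them passed the test on its own. Summed over the 96 nuclear members, the level was 16548 CPM in the lowest, 18748 in the median and 24945 in the highest lemborexant library (CPM, a gene's reads scaled to the size of the library with edgeR's TMM factors), against 19039, 21627 and 36930 CPM in vehicle. Summed over the 13 mitochondrial members it was 31286, 35778 and 52479 CPM after lemborexant and 37440, 42949 and 69033 CPM in vehicle. The groups overlapped in both sums. Vehicle replicates 3, 4 and 5 and lemborexant replicate 6, the libraries over 3% ribosomal RNA, held the highest values of their groups. Without these 4 libraries the nuclear sum ran from 16548 to 19813 CPM in 9 lemborexant libraries and from 19039 to 22110 CPM in 6 vehicle libraries. The mitochondrial sum then ran from 31286 to 40524 and from 37440 to 47450 CPM.

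**Figure D1:**
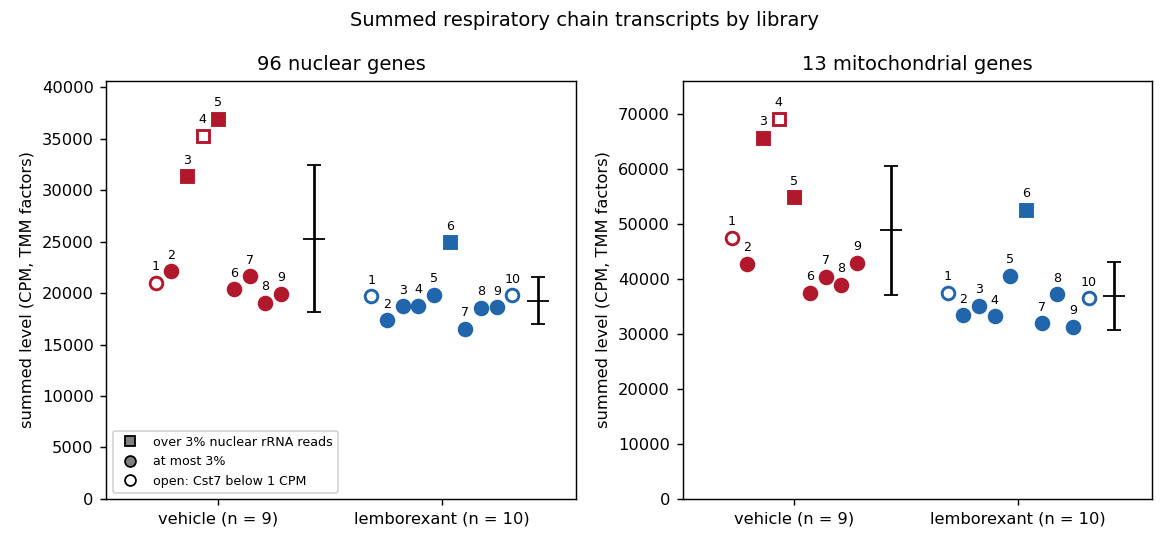
Summed level of the 96 nuclear and 13 mitochondrial members (CPM with TMM factors) in each of 9 vehicle and 10 lemborexant libraries, numbered by replicate, with the mean and SD of each group as bars. Squares mark the 4 libraries over 3% nuclear ribosomal RNA reads, which lie at 24945 to 36930 CPM in the nuclear panel, above the other 15 (at most 22110 CPM), and open symbols mark the 4 libraries with Cst7 below 1 CPM.

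The ratio of the vehicle mean to the lemborexant mean was 1.31 for the nuclear and 1.32 for the mitochondrial sum. By plain library totals, without TMM factors, these ratios were 1.19 and 1.205, and in summed TPM (a length-corrected unit) they were 1.15 and 1.124. Without the 4 libraries over 3% ribosomal RNA they were 1.11 and 1.18. Mitochondrial messages made up 3.34 to 4.93% of the reads in lemborexant libraries and 3.74 to 5.93% in vehicle libraries.

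Gene by gene, edgeR's quasi-likelihood test had reads to work with for 106 of the 109 members. Cox7b2 (186 reads in all libraries together), the testis isoform gene Cox8c (0 reads) and a second, read-through Atp5o identifier (0 reads) were not tested. Of the 106, 100 had a log2 change below 0 (lemborexant minus vehicle) and 6 above it, so 94.3% were lower against 46.4% of all 19105 genes tested. The median log2 change was -0.40 for 93 nuclear members, -0.30 for 13 mitochondrial members and 0.03 for all genes. With pairs summed, 99 of 106 members were lower against 45.6% of all genes, with medians of -0.37 and -0.27 against 0.03. With the 4 libraries over 3% ribosomal RNA left out, 96 were lower against 44.9% of all genes, with medians of -0.15 and -0.22 against 0.02.

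A single member passed an adjusted p of 0.05, against 2.61% of all genes tested (1.65% lower and 0.953% higher). It was the assembly factor gene Ndufaf6 (chr4:11051045-11076205, minus strand, GRCm38), whose protein is needed to build complex I. Its level was 5.08, 6.53 and 8.39 CPM in the lowest, median and highest lemborexant library and 7.18, 8.22 and 15.0 CPM in vehicle. Ranges overlapped, and 9 of 10 lemborexant libraries lay below the vehicle median. The log2 level of Ndufaf6 fell by 0.60 ± 0.15 (SE), with an adjusted p of 0.0388 in edgeR. This call was lost with pairs summed (log2 -0.60, edgeR adjusted p = 0.114) and without the libraries over 3% ribosomal RNA (log2 -0.25, unadjusted p = 0.0316 in edgeR).

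At an unadjusted p under 0.05 there were 84 of 106 members, or 79.2%, against 25.7% of all genes. At an adjusted p under 0.1, edgeR called 49 members lower and 0 higher, against 6.39% of all genes called lower. With pairs summed edgeR called 0 of 19224 genes at 0.05 and, at an adjusted p under 0.1, 0 members against 1.46% of all genes lower, and 65 members were at an unadjusted p under 0.05 against 21.3% of all genes. Without the libraries over 3% ribosomal RNA edgeR also called 0 genes, with 56 members at an unadjusted p under 0.05 against 13.2% of all genes. With the ribosomal RNA share as a covariate 97 of 106 members were lower against 45.1% of all genes, the member medians were -0.15 (nuclear) and -0.19 (mitochondrial), and 22 members, or 20.8%, were at an unadjusted p under 0.05 against 20.3% of all genes. The fits without the libraries over 3% ribosomal RNA and with the share as a covariate kept the nearly alike pairs as separate libraries. The number called at 0.05 depended on the tool and on single libraries. DESeq2 called 36 members lower against 2.6% of 37752 genes, and voom 14 against 5.69% of 19105. The DESeq2 base was not filtered by expression and holds many genes with few reads, so the 2 shares are not on the same base. In edgeR 50 members were called lower without lemborexant replicate 6 (3.7% of all genes), 32 without vehicle replicate 8 (4.1%), 10 without vehicle replicate 1 (2.57%) and 5 without vehicle replicate 9 (1.91%). These are removals that raised the count, and the lowest count on leaving out 1 library was 0, as without lemborexant replicate 2.

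**Figure D2:**
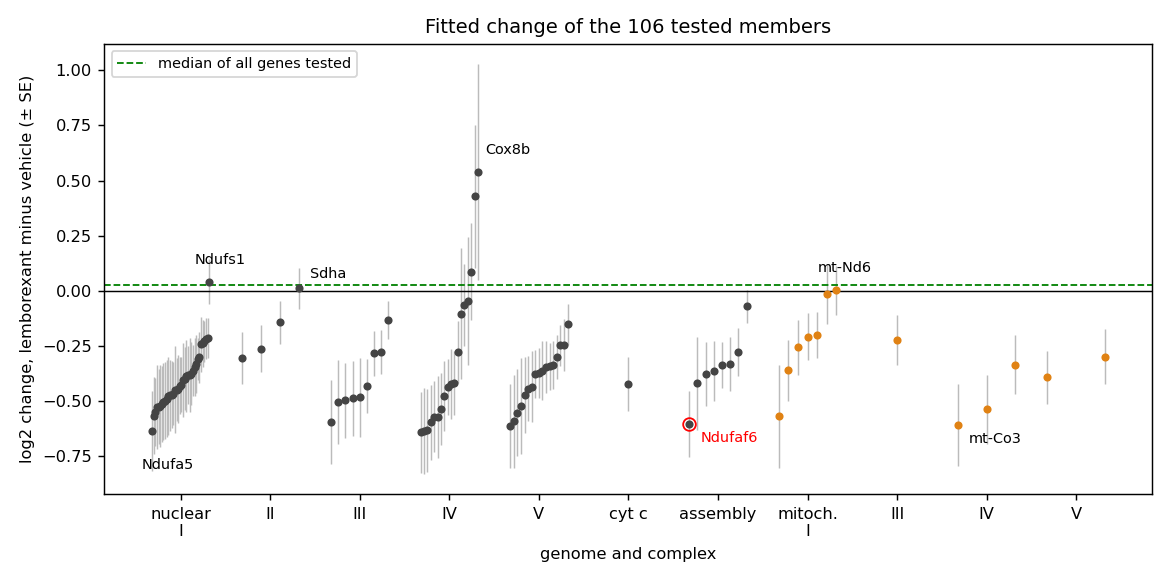
Fitted log2 change (lemborexant minus vehicle) of each of the 106 tested members with its SE as a bar, grouped by genome and complex, nuclear in grey and mitochondrial in orange. Most points lie between -0.64 and 0, below the dashed median of all 19105 genes at 0.03, and the red ring marks Ndufaf6, the member past the threshold.

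Complex I, the NADH dehydrogenase, had 35 of 36 nuclear subunits lower, with a median log2 change of -0.43 and 0 called (34 at an unadjusted p under 0.05). With pairs summed 36 of 36 were lower (median -0.39) and 24 were at an unadjusted p under 0.05. Without the libraries over 3% ribosomal RNA the median was -0.15. Its most abundant nuclear subunit per length was Ndufb8, an accessory subunit of the membrane arm, at a mean of 1114 TPM. Ndufb8 ran through 310, 343 and 423 CPM (lowest, median, highest) after lemborexant and 346, 394 and 746 CPM in vehicle, a log2 difference of -0.47 ± 0.14 (SE, edgeR adjusted p = 0.0720). The vehicle maximum stood far above its median, and the ranges overlapped.

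The lowest fitted values in complex I belonged to Ndufa5, an accessory subunit of the peripheral arm, and to Ndufb9, of the membrane arm. Ndufa5 was at 115, 121 and 197 CPM after lemborexant and at 126, 153 and 347 CPM in vehicle, a log2 difference of -0.63 ± 0.18 (SE, edgeR adjusted p = 0.0594). Ndufb9 was at 191, 263 and 381 against 264, 337 and 645 CPM, a log2 difference of -0.57 ± 0.17 (SE). For both, 9 of 10 lemborexant libraries lay below the vehicle median, and the 4 libraries over 3% ribosomal RNA lay above the other 15. At the other end of the complex stood Ndufs1, the largest subunit, which carries iron-sulfur clusters of the electron path. Ndufs1 was at 119, 163 and 219 CPM after lemborexant and 141, 159 and 192 CPM in vehicle, a log2 difference of 0.04 ± 0.10 (SE). Ndufa9, which holds NADPH in the peripheral arm, had a log2 difference of -0.21 ± 0.09 (SE).

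Complex II, the succinate dehydrogenase, also works in the citric acid cycle and had the nuclear median nearest 0 of the 5 complexes. Of its 4 subunits 3 were lower, with a median log2 change of -0.20 and 0 called. With pairs summed 4 of 4 were lower (median -0.18), and without the libraries over 3% ribosomal RNA the median was -0.04. Sdha, the flavoprotein that oxidises succinate, was at 519, 651 and 803 CPM after lemborexant and 588, 649 and 749 CPM in vehicle, a log2 difference of 0.01 ± 0.09 (SE). The vehicle range lay inside the lemborexant range. Sdhb, the iron-sulfur subunit, was at 291, 328 and 398 against 315, 367 and 588 CPM, a log2 difference of -0.30 ± 0.12 (SE, edgeR adjusted p = 0.124). The membrane anchors Sdhd and Sdhc had log2 differences of -0.26 ± 0.11 and -0.14 ± 0.10 (SE). The summed level of the complex was 1131 to 1481 CPM after lemborexant and 1259 to 1803 CPM in vehicle, and its vehicle to lemborexant ratio of means turned from 1.09 with TMM factors to 0.997 by plain totals and 0.968 in TPM.

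Complex III, which moves electrons from ubiquinone to cytochrome c, had 9 of 9 nuclear members lower, with a median log2 change of -0.48 and 0 called. With pairs summed 9 of 9 were lower (median -0.44), and without the libraries over 3% ribosomal RNA 8 of 9 (median -0.19). Uqcr10, a small subunit and its most abundant nuclear message per length (mean 1583 TPM), was at 230, 288 and 476 CPM after lemborexant and 294, 346 and 661 CPM in vehicle, a log2 difference of -0.49 ± 0.17 (SE, edgeR adjusted p = 0.0946). Uqcr11, another small subunit, was at 180, 241 and 404 against 250, 294 and 656 CPM, a log2 difference of -0.60 ± 0.19 (SE). Uqcrh, the hinge protein that helps dock cytochrome c, had a log2 difference of -0.50 ± 0.19 (SE). The core subunits Uqcrc1 and Uqcrc2, whose messages are longer, had log2 differences of -0.28 ± 0.10 and -0.13 ± 0.09 (SE). Cyc1, the cytochrome c1 subunit, was at -0.28 ± 0.10 (SE). In each of these genes the group ranges overlapped.

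Complex IV, the cytochrome c oxidase, holds the isoform pairs of the chain, and 15 of its 18 tested nuclear members were lower, with a median log2 change of -0.43 and 0 called. With pairs summed 12 of 18 were lower (median -0.42), and without the libraries over 3% ribosomal RNA 12 of 18 (median -0.16). Cox4i1, the ubiquitous form of subunit 4 and the most abundant nuclear message per length of all complexes (mean 2650 TPM), was at 810, 1007 and 1429 CPM after lemborexant and 962, 1140 and 2111 CPM in vehicle, a log2 difference of -0.42 ± 0.16 (SE, edgeR adjusted p = 0.112). Cox8a, a small membrane subunit, was at 263, 346 and 558 against 350, 454 and 933 CPM, the lowest log2 difference of all members at -0.64 ± 0.18 (SE, edgeR adjusted p = 0.0594). Cox6c was at 228, 311 and 527 against 310, 390 and 870 CPM, with a log2 difference of -0.63 ± 0.20 (SE).

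The forms of complex IV subunits best known from heart and skeletal muscle, lung or testis were present at far lower levels than their ubiquitous partners. Cox6a1, the ubiquitous form, was at 296, 469 and 641 CPM after lemborexant and 493.2, 622 and 1098 CPM in vehicle, a log2 difference of -0.57 ± 0.16 (SE), while its muscle partner Cox6a2 was at 8.89, 16.3 and 43.5 against 9.36, 14.3 and 35.3 CPM, a log2 difference of -0.10 ± 0.30 (SE). Cox7a2, at 164 to 322 CPM after lemborexant and 198 to 525.7 CPM in vehicle, had a log2 difference of -0.57 ± 0.19 (SE), and its muscle partner Cox7a1, at 0.954 to 6.67 and 1.86 to 5.20 CPM, one of -0.05 ± 0.29 (SE). Cox7a2l, which helps join complexes III and IV into supercomplexes, was at -0.28 ± 0.14 (SE), and Cox7b at -0.48 ± 0.16 (SE).

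Cox4i2, a form known for hypoxia and lung, stayed at 2.10 to 7.60 CPM with a log2 difference of 0.09 ± 0.22 (SE). Cox6b1 had a log2 difference of -0.42 ± 0.15 (SE), and its testis partner Cox6b2, at 3.68, 11.2 and 23.4 CPM after lemborexant and 3.77, 9.65 and 12.8 CPM in vehicle, one of 0.43 ± 0.32 (SE). Cox8b, a muscle and brown fat form, was at 0.183 to 8.24 and 0.588 to 4.59 CPM, with a log2 difference of 0.54 ± 0.49 (SE). Ndufa4 was at -0.54 ± 0.16 (SE) and its hypoxia-linked paralogue Ndufa4l2 at -0.06 ± 0.19 (SE). None of these passed the edgeR test, and the difference between partners was not tested. A list of 9 skeletal muscle markers summed to 16.6 to 30.2 CPM in lemborexant and 17.6 to 30.5 CPM in vehicle libraries.

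Cytochrome c itself, encoded in somatic tissues by Cycs, was at 129, 170 and 192 CPM after lemborexant and 170, 203 and 320 CPM in vehicle. All 10 lemborexant libraries lay below the vehicle median, and the log2 difference was -0.42 ± 0.12 (SE, edgeR adjusted p = 0.0621, or 0.135 with pairs summed). The testis form Cyct, which is no member, had 4 reads in all and was not tested.

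Complex V, the ATP synthase, had 17 of 17 tested nuclear members lower, with a median log2 change of -0.37 and 0 called. With pairs summed the median was likewise -0.37, and without the libraries over 3% ribosomal RNA it was -0.15, with 17 of 17 lower in both. Atp5b, the catalytic beta subunit and the most abundant nuclear message of the complex per length (mean 1076 TPM), was at 606, 769 and 879 CPM after lemborexant and 764, 862 and 1214 CPM in vehicle, a log2 difference of -0.30 ± 0.10 (SE, edgeR adjusted p = 0.0837). Atp5k, the small e subunit of the membrane part, was at 102, 119 and 205 against 115, 148 and 323 CPM, a log2 difference of -0.61 ± 0.19 (SE). Atp5mpl, another small membrane subunit, had a log2 difference of -0.59 ± 0.21 (SE). The alpha subunit gene Atp5a1 was at 688, 851 and 1040 against 857, 924 and 1204 CPM, a log2 difference of -0.15 ± 0.09 (SE). Atp5g1, Atp5g2 and Atp5g3, which encode the same proton-carrying c subunit behind different import sequences, had log2 differences of -0.38 ± 0.11, -0.24 ± 0.12 and -0.37 ± 0.11 (SE).

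The assembly factors of complex I among the members were 8 of 8 lower, with a median log2 change of -0.35 (-0.34 with pairs summed, and -0.09 with 7 of 8 lower without the libraries over 3% ribosomal RNA). Beside Ndufaf6, the fitted values ran from -0.42 for Ndufaf8 to -0.07 for Ndufaf7.

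The mitochondrial genes were 12 of 13 lower, with 0 called, also with pairs summed. Without the libraries over 3% ribosomal RNA 13 of 13 were lower, with 0 called. These messages are cut from long transcripts of the circular genome, mostly by removal of the transfer RNAs between them. The overlapping frames of mt-Atp8 and mt-Atp6, and those of mt-Nd4l and mt-Nd4, stay joined. In the GRCm38 annotation mt-Atp8 and mt-Atp6 share 43 bases (chrMT:7927-7969), where reads cannot be told apart by position and which make up 21.1% of the short mt-Atp8 frame. The shared stretch is printed because it holds the start codon of mt-Atp6 and the stop of mt-Atp8.
mt-Atp8 and mt-Atp6 overlap (GRCm38, plus strand): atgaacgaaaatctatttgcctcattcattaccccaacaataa
The frames of mt-Nd4l and mt-Nd4 share 7 bases on the same strand, and those of mt-Nd5 and mt-Nd6 share 14 on opposite strands. Those of mt-Atp6 and mt-Co3 share 1 base on the same strand. The sources used here do not say whether the authors' counting used strand, and reads of mt-Nd6 cannot be told apart from those of transcripts opposite to it.

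The mitochondrial subunits of complex IV were 3 of 3 lower with a median of -0.54, or -0.52 with pairs summed. Those of complex V had a median of -0.34, and without the libraries over 3% ribosomal RNA the medians of the 2 complexes were -0.29 and -0.31. For mt-Co3, the most abundant member of either genome per length, the level was 7437, 8353 and 14192 CPM after lemborexant. In vehicle it was 8782, 11033 and 22109 CPM, and the log2 difference was -0.61 ± 0.19 (SE, edgeR adjusted p = 0.0704). The catalytic subunit gene mt-Co1 was at 5705, 7151 and 10625 against 7512, 9070 and 16035 CPM, a log2 difference of -0.54 ± 0.16 (SE, edgeR adjusted p = 0.0626). For mt-Co2, which receives electrons from cytochrome c, the log2 difference was -0.33 ± 0.13 (SE).

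The complex V genes mt-Atp8 and mt-Atp6 had log2 differences of -0.39 ± 0.12 and -0.30 ± 0.12 (SE), and mt-Cytb, the mitochondrial subunit of complex III, one of -0.22 ± 0.11 (SE). The complex I genes had a median of -0.21, from -0.57 ± 0.23 for mt-Nd3 through -0.36 ± 0.14 for mt-Nd1, -0.26 ± 0.12 for mt-Nd2, -0.21 ± 0.11 for mt-Nd4 and -0.20 ± 0.10 for mt-Nd4l (SE). For mt-Nd5 the level was 1405, 2023 and 2224 CPM after lemborexant and 1105, 1885 and 2981 CPM in vehicle, a log2 difference of -0.01 ± 0.14 (SE). For mt-Nd6, the member on the light strand, it was 0.002 ± 0.11 (SE). In both genes the vehicle range enclosed the lemborexant range.

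The make-up of the mitochondrial messages also varied between libraries. As a share of the reads on the 13 genes, mt-Co3 ran from 22.6 to 35.5% and mt-Co1 from 17.9 to 25.0%, with vehicle replicate 5, the library with most ribosomal RNA, at the top of both. In that library mt-Nd5 took 2.02% and mt-Nd6 0.315%, the lowest shares of 19 libraries, against up to 6.44 and 0.912% in lemborexant replicate 7. Vehicle replicate 5 likewise held the lowest share of mt-Cytb (10.6%, up to 15.5% elsewhere), mt-Nd1, mt-Nd2, mt-Nd4 and mt-Nd4l. The same held for mt-Co2 (7.01%, up to 9.14% elsewhere), mt-Atp6 and mt-Atp8, while its share of mt-Nd3 was the highest.

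**Figure D3:**
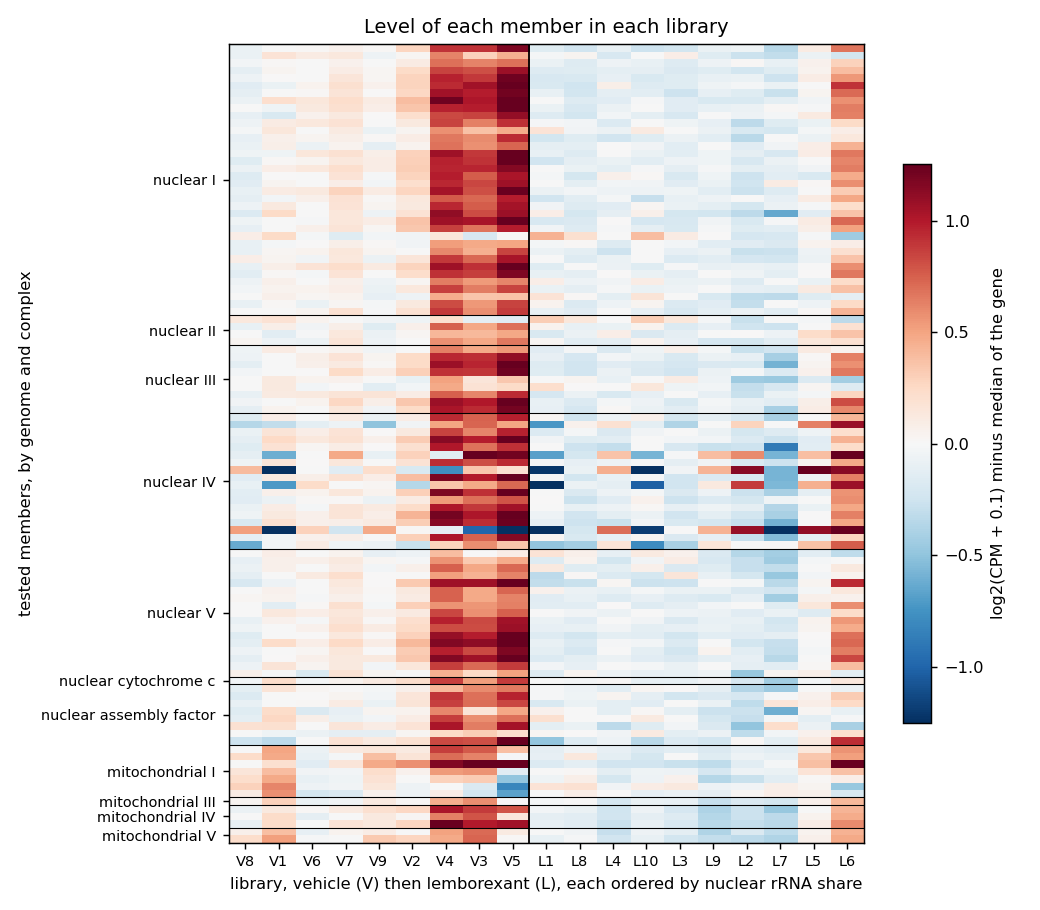
Level of each of the 106 tested members in each library as log2(CPM + 0.1) minus the median of the gene, members in rows by genome and complex, libraries in columns ordered within each group by the share of nuclear ribosomal RNA reads. The columns of vehicle replicates 4, 3 and 5 and lemborexant replicate 6 are the reddest, and the muscle and testis isoforms of complex IV break the pattern of their block.

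The libraries over 3% ribosomal RNA stood out across the members. All 4 lay above the other 15 libraries in 70 of 106 tested members (67 of 93 nuclear and 3 of 13 mitochondrial), against 7.51% of all genes. All vehicle libraries lay above all lemborexant libraries in 0 members (0.136% of all genes). These 4 libraries were 1 of 10 in the lemborexant and 3 of 9 in the vehicle group, and the part of the ribosomal RNA share in the treatment difference was not tested beyond leaving the libraries out and fitting the share as a covariate, as given above.

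**Figure D4:**
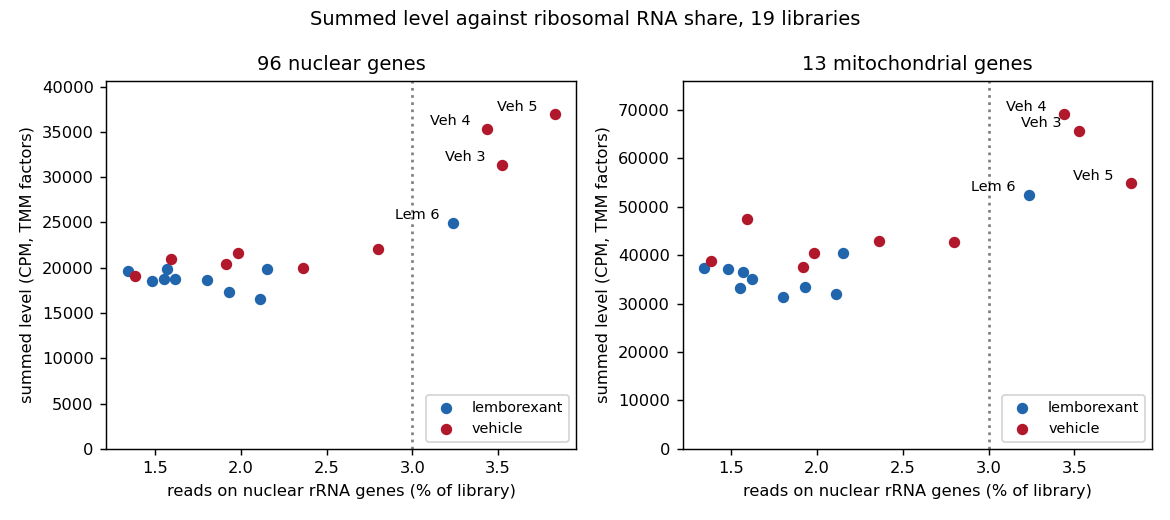
Summed level of nuclear members (left) and mitochondrial members (right), in CPM with TMM factors, against the percentage of reads on nuclear ribosomal RNA genes, 1 point per library. Left of the dotted line at 3% the nuclear sums lie between 16548 and 22110 CPM, and right of it between 24945 and 36930 CPM.

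Fitted changes of the nuclear members were ordered by gene length. Over 93 nuclear members Spearman's rho between the deposited length and the log2 change was 0.55, and over 15019 other protein-coding nuclear genes it was 0.32 (descriptions across genes, which share all 19 libraries and are not independent). In length classes chosen after the data were seen, 11 nuclear members under 500 bases had a median log2 change of -0.52, against -0.43 for 73 other protein-coding genes of that length. From 500 to 1000 bases the medians were -0.44 for 55 members and -0.24 for 1066 others, from 1000 to 2000 bases -0.29 for 22 members and -0.10 for 4050 others, and from 2000 to 4000 bases -0.15 for 5 members and 0.03 for 6621 others. Without the libraries over 3% ribosomal RNA the medians of members and others in these 4 classes were -0.19 and -0.15, -0.17 and -0.07, -0.08 and -0.02, and -0.06 and 0.02. No member was longer than 4000 bases, where the median of 3209 other genes was 0.12. In each class that held members their median was below that of the other genes, whose own median was below 0 in the 3 shortest classes. Over the 13 mitochondrial members rho was 0.16.

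**Figure D5:**
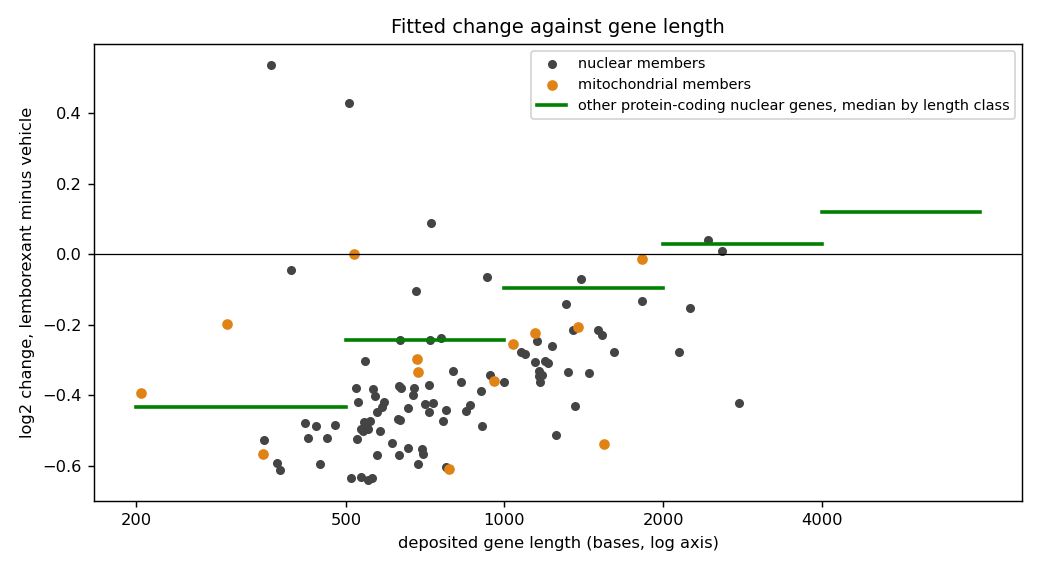
Fitted log2 change (lemborexant minus vehicle) of each tested member against its deposited gene length in bases (log axis), with green lines for the medians of other protein-coding nuclear genes in 5 length classes. The nuclear points rise from a median of -0.52 below 500 bases to -0.15 between 2000 and 4000 bases, and the green lines rise from -0.43 to 0.12.

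The length-corrected TPM scale moved the median log2 change of all genes from 0.03 to 0.18 (limma on log2(TPM + 1), 16600 genes), and on it members are described relative to 0.18. There 83.0% of 94 nuclear members were below 0 against 23.4% of all genes, with a median of -0.14, or -0.31 relative to all genes. The mitochondrial median was -0.05, or -0.23 relative to all genes, and 7 of 13 mitochondrial genes were below 0. On this scale the medians of complex II (0.04) and of the mitochondrial subunits of complex I (0.02) and the value of mt-Cytb (0.01) were above 0 and below the median of all genes. Within complex I mt-Nd5 (0.25) and mt-Nd6 (0.28) lay above that median, as did Sdha (0.22) in complex II, while mt-Nd1 (-0.11) and mt-Nd3 (-0.32) were below 0. In this test 0 members were called lower against 0.181% of all genes, and 43 were at an unadjusted p under 0.05 against 29.6%.

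The rest of the pathway was described from lists of genes outside the membership, with edgeR counts over all 19 libraries. Of all genes tested 46.4% were lower and 1.65% were called lower, and the counts of each list stand beside these shares. The cofactors that build complex IV, such as the copper chaperones Cox17 and Cox19, were 17 of 18 lower with a median log2 change of -0.29 and 0 called, and Cox19 had the smallest p (log2 -0.35 ± 0.10, SE, edgeR adjusted p = 0.0632). Complex III assembly genes were 6 of 6 lower with 0 called, and complex II assembly genes 4 of 4 lower with 0 called. Of 8 other complex I assembly genes 5 were lower and 1 was called lower. That gene was Tmem70, a membrane factor for ATP synthase and complex I assembly that also belongs to the complex V list (5 of 5 lower), at 21.03, 25.9 and 29.9 CPM after lemborexant and 28.1, 34.1 and 61.1 CPM in vehicle (log2 -0.59 ± 0.13, SE, edgeR adjusted p = 0.0258, or 0.0834 with pairs summed).

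Mitochondrial ribosomal proteins, which translate the mitochondrial messages, were 78 of 78 lower (46.4% of all genes) with a median of -0.30. Of these 78 genes 1 was called lower, against 1.65% of all genes. It was Mrps22 (log2 -0.47 ± 0.11, SE, edgeR adjusted p = 0.0308, or 0.09997 with pairs summed). Genes of mitochondrial transcription, replication and RNA handling were 15 of 18 lower with a median of -0.08 and 0 called, and the transcription factor gene Tfb2m was at -0.33 ± 0.09 (SE, edgeR adjusted p = 0.0571). Citric acid cycle genes were 14 of 17 lower with a median of -0.14 and 0 called, and Dlat, of the pyruvate dehydrogenase complex, was at -0.29 ± 0.08 (SE, edgeR adjusted p = 0.0626). Outer membrane genes were 8 of 9 lower with 0 called, with the import receptor gene Tomm70a at -0.27 ± 0.08 (SE). Regulators of mitochondrial biogenesis did not share this direction: 3 of 10 were lower, the median was 0.06, and Ppargc1a, the coactivator PGC-1 alpha, was at 35.5, 45.8 and 55.3 CPM after lemborexant and 26.1, 42.4 and 48.7 CPM in vehicle (log2 0.19 ± 0.10, SE, edgeR adjusted p = 0.222). Without the libraries over 3% ribosomal RNA the medians of the complex IV assembly, mitoribosome and citric acid cycle lists were -0.08, -0.09 and -0.02.

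Marker lists of other brain regions held called genes too, and in bulk RNA fewer cells of a type and less RNA per cell cannot be told apart. Hippocampal markers, a list partly chosen from earlier results of these libraries, were 15 of 15 lower with 6 called (against 1.65% of all genes called lower), and summed to 212 to 708 CPM in lemborexant and 613 to 959 CPM in vehicle libraries. Thalamic and hypothalamic markers were 11 of 11 higher with 7 called (against 0.953% of all genes called higher; 150 to 2719 against 88.3 to 184 CPM), and striatal markers 11 of 12 higher with 1 called (143 to 521 against 129 to 169 CPM). Cortical markers were 5 of 8 higher with 1, Rorb, called (against 0.953% of all genes called higher; 278 to 1224 against 726 to 1137 CPM). The other 3 were lower, down to a log2 change of -1.07, with 0 called. Of cell types, the neuronal, astrocyte, microglial, oligodendrocyte, endothelial, meningeal and choroid plexus lists had 0 genes called. Their directions differed: microglial markers were 14 of 15 lower (median -0.28) and neuronal markers 9 of 12 lower (-0.09). Choroid plexus markers were 9 of 9 higher (median 0.71), meningeal 7 of 8 (1.09), endothelial 7 of 8 (0.28) and oligodendrocyte 8 of 8 (0.21). Astrocyte markers were 5 of 9 higher (0.06). In the brown fat list 2 of 5 genes were tested. Cidea fell (log2 -0.59 ± 0.10, SE, edgeR adjusted p = 0.0191), and the other was higher (log2 0.26) and not called. The defining marker of that tissue, Ucp1, was at 0 to 0.180 CPM. With pairs summed 0 genes of any marker or pathway list were called.

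The list furthest from 0 was that of liver, with 5 of 6 tested genes called lower and a median log2 change of -3.91, and it rested on vehicle replicate 7. That library held 329 CPM of Alb (albumin) and 323 CPM of Apoa2, against at most 13.7 and 17.4 CPM in the other 18 libraries. Without it 0 of the 6 were called and their median was -0.76. Without lemborexant replicate 4 or 9 or vehicle replicate 4 or 5 there were also 0 calls, with medians of -4.06 to -3.87. The member medians without vehicle replicate 7 were -0.43 (nuclear) and -0.32 (mitochondrial).

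With the hippocampal score as a covariate the member medians were -0.33 (nuclear) and -0.27 (mitochondrial), and 2 members were at an unadjusted p under 0.05 against 6.96% of all genes. That score ran from -1.33 to 0.285 in lemborexant and from 0.395 to 0.859 in vehicle libraries, with no overlap. Score and treatment therefore cannot be told apart by this fit, and the part of the score in the result was not tested further.

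Between the 4 libraries with Cst7 below 1 CPM and the other 15, the summed levels of the respiratory chain messages overlapped. These 4 were 2 lemborexant and 2 vehicle libraries, they were set apart by a measured level, and lemborexant replicates 1 and 10 are a nearly alike pair, so their values are a description with no test. The nuclear sum was 19682 to 35324 CPM (median 20409) in the 4 libraries and 16548 to 36930 CPM (median 19813) in the 15. The mitochondrial sum was 36472 to 69033 CPM (median 42425) against 31286 to 65608 CPM (median 38850). Vehicle replicate 4, which is also over 3% ribosomal RNA, held the top value of the 4 in both sums. The log2 ratio of medians, low over high Cst7, had a median of 0.02 over nuclear members, 0.14 over mitochondrial members and 0.01 over all genes tested. It was above 0 in 13 of 13 mitochondrial members (100%), 53.8% of nuclear members and 51.5% of all genes. The 4 libraries did not share this direction in the mitochondrial sum. Lemborexant replicates 1 and 10 (37399 and 36472 CPM) lay below the median of the 15, and vehicle replicates 1 and 4 (47450 and 69033 CPM) above it.

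In 2 members all 4 libraries with low Cst7 lay above the other 15, against 2.29% of all genes. They were Sdha, at 737 to 803 CPM against 519 to 719 CPM, and Atp5a1, at 980 to 1204 CPM against 688 to 976 CPM. Cox6b2 was the member with all 4 below the other 15, at 3.68 to 5.64 CPM against 6.44 to 23.4 CPM (6.29% of all genes). The first count is close to that background and the second below it. Astrocyte markers summed to 2722 to 3844 CPM in these 4 libraries and 6153 to 13905 CPM in the others, and microglial markers to 488 to 807 against 1356 to 5218 CPM. Neuronal markers went the other way, at 9442 to 10033 against 4117 to 8480 CPM. So did the citric acid cycle genes, at 4866 to 5434 against 3453 to 4575 CPM. With the 4 libraries left out, 99 of 106 members were lower after lemborexant against 47.9% of all genes, with medians of -0.36 (nuclear) and -0.22 (mitochondrial). In edgeR 0 members were then called lower against 1.66% of all genes (0.0810 the lowest adjusted p), and 66 were at an unadjusted p under 0.05 against 23.6%. With pairs summed as well, 99 of 106 members were lower against 47.1% of all genes, with medians of -0.34 (nuclear) and -0.17 (mitochondrial). In that edgeR fit 0 genes were called, and 31 members, or 29.2%, were at an unadjusted p under 0.05 against 20.4% of all genes.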

How the data were processed

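Cortex RNA of 19 libraries was sequenced, and groups were taken from the treatment label. The submitters' processing notes name the tools bcl2fastq and DRAGEN 3.9.3-8 and the build GRCm38. Sources used here do not give the gene annotation or strand setting. Per the file headers, the deposited tables hold an estimated count, a TPM value and lengths for each of 55487 gene identifiers. Estimated counts were rounded for the count tests. GENCODE M21 (GRCm38) gave a symbol for 55227 identifiers.

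Genes were tested with the quasi-likelihood method of edgeR 4.0.16 in R 4.3.3 (TMM factors, expression filter, robust dispersion). P-values were two-sided, adjusted by Benjamini-Hochberg for 19105 genes and called at 0.05. The SE is the log2 change divided by the square root of F. Tested on simulated data of this design (18817 genes), it recovered 41% of 100 genes changed 1.5-fold and 79% of 100 changed 2-fold, with 4 false calls among 124. The simulated libraries were independent and held no nearly alike pairs and no libraries set apart by ribosomal RNA. These rates therefore do not measure the error of the calls in the real libraries. DESeq2 1.42.0 and limma 3.58.1 (voom with quality weights, and deposited TPM) were alternatives, and single values were tested by exact permutation. With at least 20185043 reads per library, counting error is small beside the spread between libraries for most members. It is larger for genes near or below 1 CPM, such as Cox8b (down to 0.183 CPM) and Cox7a1 (down to 0.954 CPM).

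Members and lists were chosen with earlier results of these data known. Named are the 13 mitochondrial genes, in each complex the most abundant nuclear subunit and the 2 largest changes each way, members past the threshold, isoform pairs, and of each pathway list the genes past the threshold or, where there was none, the smallest p. Other genes were picked for illustration after their values were seen. Cox7b2 and Cox8c are given by reads only.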

Additional observations from a re-analysis of the deposited data

Results flagged for a closer look

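A search for a library set off from the rest by a wide gap covered 126 groups and marked 35 values. The groups were levels of the named members, and sums by genome and complex, in each treatment group. Chance marks about 1 group in 20. These groups share libraries, and the sums hold their own members, so the marks are not independent and their number cannot be set against that rate. In 33 of the 35 marks lemborexant replicate 6 was the highest of its 10 libraries. It is the lemborexant library over 3% ribosomal RNA, and the part of that share was not tested. It held 24945 CPM over the nuclear members (next highest 19813) and 52479 CPM over the mitochondrial members (next highest 40524). By complex it held 8274 CPM for nuclear complex I, 2881 for III, 5883 for IV and 6084 for V, and 29615 CPM for mitochondrial complex IV and 5096 for V. Its levels in complexes I and III were 197 CPM for Ndufa5, 423 for Ndufb8, 476 for Uqcr10, 404 for Uqcr11 and 333 for Uqcrh. In complex IV they were 1429 CPM for Cox4i1, 43.5 for Cox6a2, 396 for Cox6b1, 527 for Cox6c, 322 for Cox7a2, 310.1 for Cox7a2l, 235 for Cox7b and 558 for Cox8a. In complex V they were 101 CPM for Atp5g2, 277 for Atp5g3, 205 for Atp5k and 119.7 for Atp5mpl. Its mitochondrial levels were 4529 CPM for mt-Atp6, 567 for mt-Atp8, 10625 for mt-Co1, 4798 for mt-Co2, 14192 for mt-Co3, 7644 for mt-Cytb, 4168 for mt-Nd1 and 37.7 for mt-Nd3. In mt-Nd5 the same library was the lowest of its group, at 1405 CPM with the next at 1868 CPM. In Atp5a1, vehicle replicate 4 was the highest of its group at 1204 CPM, with the next at 980 CPM.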

How the results depend on the processing

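Under every alternative run, the median log2 change of the tested nuclear members and that of the mitochondrial members stayed below 0. They ranged from -0.47 to -0.14 and from -0.37 to -0.050, with both TPM scales giving -0.050 for the mitochondrial genes (limma) and voom giving -0.20 and -0.21. The count of members called lower, 1 in edgeR, was 0 with no expression filter, on both TPM scales, with pairs summed (alone, without the libraries of low Cst7, or, added after seeing the data, without those over 3% ribosomal RNA), without the libraries of low Cst7, with the library number range as a covariate, within the libraries numbered 1064 to 1602, with the hippocampal score as a covariate, without the libraries over 3% ribosomal RNA and with the ribosomal RNA share as a covariate (added after seeing the data). It was 36 in DESeq2, 14 with voom, 12 with the Cst7 class as a covariate and 49 at a threshold of 0.1, and 0 members were called higher in any of them. Leaving out 1 library gave 0 to 50, and leaving out 1 unit with pairs summed (added) gave 0 each time. The cause of these shifts was not tested. Of the named members, those near 0 turned sign most often without being called on either side: Cox7a1 in 27 of 53 alternatives, Sdha in 24, Ndufa4l2 in 22, Ndufs1 in 20 and mt-Nd6 in 24 of 52. Ndufaf6 kept its direction in all 53. No paired analysis was possible because the labels carry library numbers but no replicate number shared between the groups. Depth is not the limit for most members, and Cox7b2, Cox8c and Cyct were too low to test.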

Other observations

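Among the 13 symbols that share the members' prefixes and are annotated as pseudogenes or noncoding genes, 2 had levels like those of subunit genes. Ndufb4c, annotated as a processed pseudogene (chr15:73809507-73809896, GRCm38), was at 76.2 to 196 CPM, and Ndufb1-ps, annotated as a noncoding gene of a bidirectional promoter (chr12:101968090-101977068), at 69.0 to 214 CPM. Reads of a processed copy and of its parent gene are divided by the counting program, so the level of Ndufb4c and that of Ndufb4 are uncertain. The next highest was Ndufab1-ps at 7.42 to 20.99 CPM, and the other 10 had a mean under 1 CPM.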
